A study of Mus musculus with 18 samples.

Results

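The voltage-gated sodium channel subunits described here were 8 genes, 5 for pore-forming alpha subunits (*Scn1a*, *Scn2a*, *Scn3a*, *Scn8a* and *Scn9a*) and 3 for auxiliary beta subunits (*Scn2b*, *Scn3b* and *Scn4b*). They were defined by a list of symbols and were found by symbol in GENCODE release M21 among the 53468 genes of the deposited count table. All 8 passed the filter on low counts when the 18 libraries were fitted together, where 20363 genes were tested.

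Poly(A) RNA was sequenced from the dissected forebrain, midbrain and hindbrain of 3 Fmr1CRE and 3 wild-type male mice of the same litter at postnatal day 25 (P25), 1 library per mouse and region. Fmr1CRE mice carry a regulatory variant assigned to *Fmr1*, first found in a patient with X-linked intellectual disability and placed at the orthologous mouse position by CRISPR/Cas9. More than 1 independent line was made on a C57BL/6 background, and the line used for sequencing is not given in the sources used here. The wild-type mice were unedited littermates, and no treatment is described for either group.

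An alpha subunit is a single long protein that forms the sodium-selective pore and opens on depolarisation, which starts the action potential. Beta subunits are small membrane proteins with an immunoglobulin-like domain that associate with the alpha subunit and modify its gating and its placement in the membrane. In brain, *Scn1a* encodes the channel Nav1.1, known from fast-spiking inhibitory neurons and Purkinje cells, *Scn2a* encodes Nav1.2, known from axons of excitatory neurons, and *Scn8a* encodes Nav1.6, the main channel of mature axon initial segments and nodes of Ranvier. *Scn3a* encodes Nav1.3, a channel of the developing brain, and *Scn9a* encodes Nav1.7, best known from peripheral sensory neurons.

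Library totals over genes lay between 22455512 and 28061185. Levels are given as CPM, the reads of a gene relative to all reads of its library, after TMM normalisation, and where genes are compared with each other, in CPM per kilobase of the effective length of their transcripts. The regions were recognisable by their markers. The 7 forebrain markers had a mean log2 CPM of 5.44 to 5.83 in forebrain libraries and of -0.43 to 0.81 in hindbrain libraries, and the 6 hindbrain markers had 3.80 to 3.97 in hindbrain and -3.68 to -2.50 in forebrain. Midbrain libraries also held both forebrain markers, at 4.50 to 5.45, and markers of cerebellar granule cells, at 5.15 to 6.46 against 6.55 to 7.69 in hindbrain and 1.80 to 3.57 in forebrain. *Fmr1* itself differed between genotypes by -0.0033, 0.0056 and 0.15 on the log2 scale in forebrain, midbrain and hindbrain.

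The 2 forebrain libraries labelled number 3 went against their labels. By a rule chosen after values were seen, 2 genes separated the genotypes in both midbrain and hindbrain, *Gm5436* and *Xlr3c*. *Gm5436* had 42 counts or more in every other wild-type library and 5 counts or fewer in every other Fmr1CRE library, but 0 counts in wild-type forebrain replicate 3 and 52 counts in Fmr1CRE forebrain replicate 3. *Xlr3c* had 33 and 2 counts in these libraries, the reverse of its pattern in the other libraries. Labels were kept as given, and results on the genotype are given with and without the libraries numbered 3.

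The 4 alpha-subunit genes *Scn3a*, *Scn2a*, *Scn1a* and *Scn9a* lie in a cluster on chromosome 2, in GRCm38 coordinates. *Scn3a* (ENSMUSG00000057182) spans chr2:65457118-65567627 on the minus strand, *Scn2a* (ENSMUSG00000075318) chr2:65620771-65767447 on the plus strand, *Scn1a* (ENSMUSG00000064329) chr2:66270778-66440840 on the minus strand and *Scn9a* (ENSMUSG00000075316) chr2:66480080-66634962 on the minus strand. *Scn8a* (ENSMUSG00000023033) lies apart at chr15:100869858-101045938 on the plus strand. The 3 beta-subunit genes share chromosome 9 and the plus strand, with *Scn3b* (ENSMUSG00000049281) at chr9:40269217-40291618, *Scn2b* (ENSMUSG00000070304) at chr9:45117782-45130070 and *Scn4b* (ENSMUSG00000046480) next to it at chr9:45138395-45154152.

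The alpha subunits are similar enough in sequence for the assignment of 50-base reads to matter. Of all 31-base sequences in the annotated transcripts of a gene, 7.29% of those of *Scn1a*, 9.16% of *Scn2a*, 9.57% of *Scn3a* and 6.01% of *Scn9a* occurred in other genes, against 0.490% for *Scn8a*, and for each of these 5 genes the gene that shared most was another alpha subunit. For the beta subunits the shares were 2.20% for *Scn2b*, 0.269% for *Scn3b* and 0 for *Scn4b*.

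In *Scn2a*, *Scn3a*, *Scn8a*, *Scn2b*, *Scn3b* and *Scn4b* the same annotated transcript took most of the reads in each of the 18 sets of transcript estimates, and in *Scn1a* several shared them. The leading transcript had a median of 91.7% of the reads in *Scn8a* (Scn8a-205), 85.3% in *Scn2a* (Scn2a-202), 85.7% in *Scn2b* (Scn2b-202) and 77.3% in *Scn3a* (Scn3a-202), and *Scn4b* has 1 annotated transcript. The low *Scn9a* was split unevenly, with a median of 95.9% for Scn9a-202 but a range of 0% to 100%. In *Scn3b* the leading transcript Scn3b-203 had a median of 57.4% of the reads, with a range of 50.4% to 80.8%. Its range as a share of transcript abundance per length (TPM) was 26.6% to 59.9%. In *Scn1a*, Scn1a-201 had 41.6%, and the transcript Scn1a-208, annotated for nonsense-mediated decay, had a median of 9.82% of the reads and 21.6% of the TPM. Scn1a-208 was at 19.1% to 35.4% of the *Scn1a* TPM in forebrain, 16.4% to 23.2% in midbrain and 19.9% to 28.1% in hindbrain, so the regions overlapped. Scn1a-208 is annotated with 908 coding bases, against 5994 in Scn1a-201. It has an exon of 64 bases at chr2:66293832-66293895, minus strand, that overlaps no exon of the annotated protein-coding *Scn1a* transcripts. This exon is shown because none of the annotated protein-coding *Scn1a* transcripts has it.
Scn1a-208 exon: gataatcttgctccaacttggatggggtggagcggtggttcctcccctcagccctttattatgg
A short fragment weighed on TPM shares in *Scn8a* too. Scn8a-215, with 326 bases, held 30.5% of the *Scn8a* TPM at 0.353% of the reads.

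Levels by region are described first. Per kilobase, forebrain had *Scn2b* at 53.3 ± 7.55 (SD, n = 6 libraries), *Scn4b* at 40.8 ± 12.7, *Scn2a* at 36.5 ± 7.84, *Scn3b* at 28.5 ± 6.77, *Scn1a* at 21.9 ± 1.72, *Scn8a* at 21.3 ± 4.12, *Scn3a* at 7.35 ± 1.51 and *Scn9a* at 0.565 ± 0.186 CPM per kilobase. Each of the first 6 overlapped its neighbour in this order, and *Scn3a* and *Scn9a* lay apart below them. In midbrain the order was *Scn2b* at 57.2 ± 3.25, *Scn2a* at 43.3 ± 2.91, *Scn3b* at 34.1 ± 3.23, *Scn1a* at 30.2 ± 3.14, *Scn8a* at 26.8 ± 5.11, *Scn4b* at 16.3 ± 3.97, *Scn3a* at 7.02 ± 1.26 and *Scn9a* at 0.808 ± 0.215. Here *Scn2b* and *Scn2a* each stood apart from the next, *Scn3b*, *Scn1a*, *Scn8a* and *Scn4b* overlapped from neighbour to neighbour, and *Scn3a* and *Scn9a* were again apart. Hindbrain had *Scn2b* at 37.0 ± 2.18, *Scn1a* at 34.3 ± 4.96, *Scn4b* at 26.5 ± 4.20, *Scn2a* at 18.7 ± 2.43, *Scn8a* at 11.5 ± 2.38, *Scn3b* at 7.86 ± 2.74, *Scn3a* at 2.85 ± 0.878 and *Scn9a* at 0.721 ± 0.242. The libraries of the first 4 overlapped from neighbour to neighbour, and so did those of *Scn8a* and *Scn3b*. With lengths weighted by reads, *Scn2b* was thus the highest of the 8 in mean in each region. Its libraries overlapped those of the next gene in forebrain and hindbrain. *Scn1a* moved from the fifth place in forebrain to the second in hindbrain. Places depend on the length used, also where libraries stood apart. For *Scn1a* it was 6359 bases weighted by reads and 5824 weighted by TPM, and for *Scn2b* 4664 and 4643. The shift was larger for *Scn2a* (6953 and 5103), *Scn8a* (11136 and 7454) and *Scn3b* (3428 and 2404). With lengths weighted by TPM, *Scn2b* would not be the highest in mean in midbrain, where *Scn2a* would be above it. In hindbrain *Scn1a* would then be slightly above *Scn2b*. The deposited counts behaved as estimates scaled with lengths weighted by TPM.

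**Figure D1:**
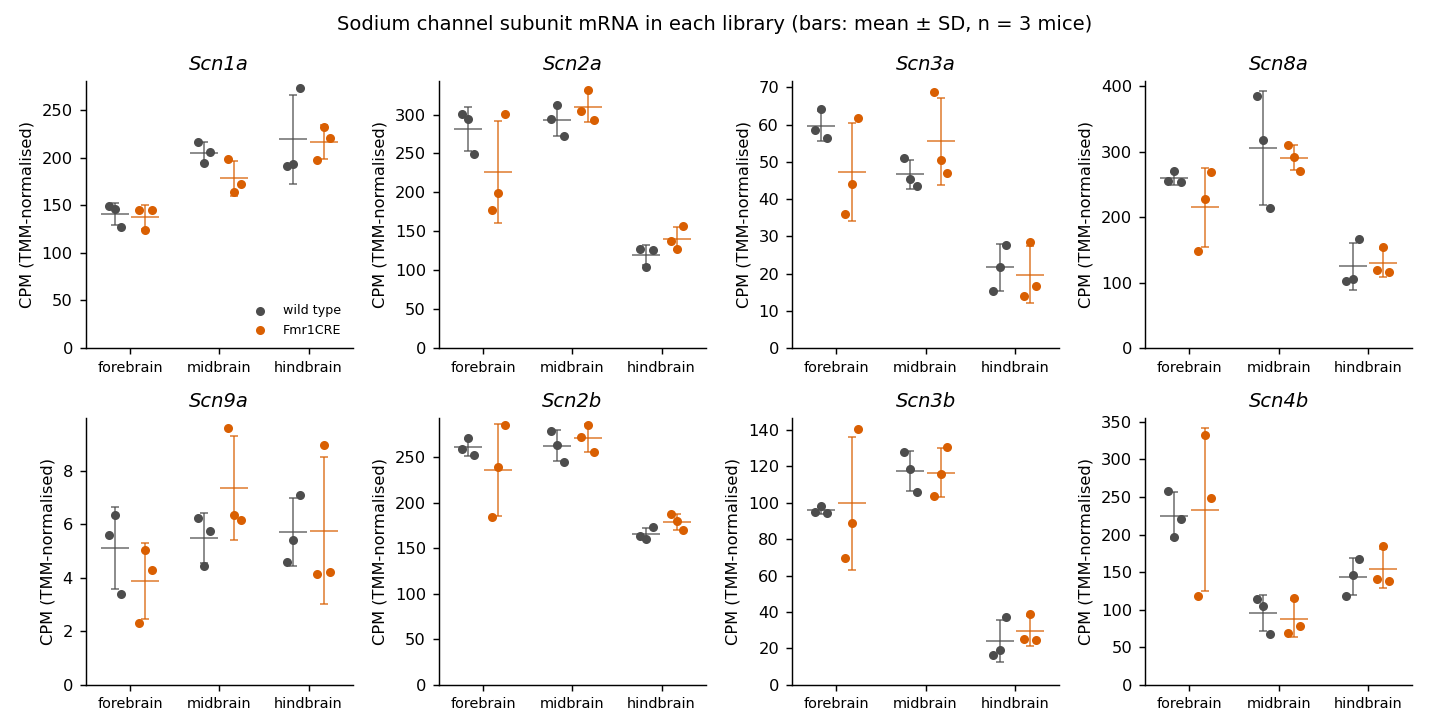
Level of each subunit in TMM-normalised CPM (vertical axis, from 0) in every library by region, grey for wild type and orange for Fmr1CRE, with points for mice and bars for the mean ± SD of 3 mice. *Scn2a*, *Scn3a*, *Scn8a* and *Scn3b* sit low in hindbrain, *Scn1a* sits low in forebrain and *Scn4b* sits low in midbrain.

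Hindbrain differed most from the other regions. Of the 8 genes, 7 differed between forebrain and hindbrain at an adjusted p under 0.05 in edgeR's quasi-likelihood test with Benjamini-Hochberg adjustment, where 51.7% of all genes tested did so, 26.4% higher in forebrain and 25.3% higher in hindbrain. *Scn2a*, *Scn3a*, *Scn8a*, *Scn2b*, *Scn3b* and *Scn4b* were higher in forebrain and *Scn1a* was lower. Between midbrain and hindbrain 6 of 8 differed, against 49.1% of all genes, with *Scn2a*, *Scn3a*, *Scn8a*, *Scn2b* and *Scn3b* higher in midbrain and *Scn4b* lower. Between forebrain and midbrain only *Scn1a* and *Scn4b* differed, 2 of 8 genes, against 19.3% of all genes, 9.38% higher in forebrain and 9.96% higher in midbrain. Since each comparison of regions shares libraries with the others, the 3 sets of calls are not independent. The median log2 fold change over the 8 genes was 0.76 between forebrain and hindbrain, 0.92 between midbrain and hindbrain and -0.26 between forebrain and midbrain, beside -0.0085, -0.030 and 0.023 over all genes tested.

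*Scn1a* was the 1 alpha subunit called lower in forebrain than in hindbrain. Its forebrain libraries lay at 124 to 149 CPM (median 145), midbrain libraries at 164 to 216 (median 197) and hindbrain libraries at 191 to 273 (median 209). No forebrain library reached any library of the other regions, while midbrain and hindbrain overlapped. *Scn1a* in forebrain was 0.640 times the hindbrain level, a log2 fold change of -0.64 ± 0.094 (SE, adjusted p = 2.80e-05, edgeR), and 0.728 times the midbrain level, -0.46 ± 0.094 (adjusted p = 0.00293). Midbrain and hindbrain differed by -0.19 ± 0.093, with a 95% confidence interval of -0.39 to 0.011 (adjusted p = 0.109), and here the call depended on the scaling and the filter, since total counts alone gave -0.26 (adjusted p = 0.0289) and a filter of at least 10 counts in every library -0.23 (adjusted p = 0.0380).

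*Scn2a* was lowest in hindbrain. Forebrain libraries lay at 178 to 301 CPM (median 272), midbrain libraries at 272 to 332 (median 299) and hindbrain libraries at 104 to 156 (median 127). Every hindbrain library was below every other. *Scn2a* was 1.95 times as high in forebrain as in hindbrain, 0.96 ± 0.11 on the log2 scale (adjusted p = 3.02e-06, edgeR), and 2.33 times as high in midbrain, 1.22 ± 0.11 (adjusted p = 4.12e-07). The forebrain and midbrain levels differed by -0.26 ± 0.11 (adjusted p = 0.124), a value that passed the threshold without Fmr1CRE replicate 3 (-0.41, adjusted p = 0.00586), without both mice numbered 3 (-0.39, adjusted p = 0.0113) and with total counts alone (-0.32, adjusted p = 0.0389).

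*Scn8a*, the channel of mature axon initial segments, followed *Scn2a*. Its forebrain libraries lay at 149 to 271 CPM (median 254), midbrain libraries at 214 to 386 (median 301) and hindbrain libraries at 102 to 166 (median 118). All midbrain libraries were above all hindbrain libraries, and a single forebrain library, Fmr1CRE replicate 1 at 149 CPM, fell within the hindbrain range. *Scn8a* was 1.85 times as high in forebrain as in hindbrain, 0.89 ± 0.16 on the log2 scale (adjusted p = 0.000285, edgeR), and 2.34 times as high in midbrain, 1.23 ± 0.17 (adjusted p = 1.96e-05). Forebrain and midbrain differed by -0.34 ± 0.16 (adjusted p = 0.167), and by -0.55 (adjusted p = 0.0241) without both mice numbered 3.

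*Scn3a*, the developmental channel, was still measured at P25 and was likewise lowest in hindbrain. Forebrain libraries lay at 36.0 to 64.1 CPM (median 57.4), midbrain libraries at 43.5 to 68.9 (median 48.8) and hindbrain libraries at 14.0 to 28.5 (median 19.3). Hindbrain libraries lay below all others and forebrain and midbrain overlapped widely. The fold was 2.57 for forebrain over hindbrain, 1.36 ± 0.19 on the log2 scale (adjusted p = 1.48e-05, edgeR), and 2.46 for midbrain over hindbrain, 1.30 ± 0.19 (adjusted p = 3.34e-05).

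*Scn9a* was low everywhere, with forebrain libraries at 2.29 to 6.33 CPM, midbrain libraries at 4.45 to 9.61 and hindbrain libraries at 4.12 to 8.95. The 3 regions overlapped, and none of the differences passed the threshold, with -0.37 ± 0.24 between forebrain and hindbrain (adjusted p = 0.225, edgeR), -0.51 ± 0.24 between forebrain and midbrain (adjusted p = 0.157) and 0.15 ± 0.24 between midbrain and hindbrain (adjusted p = 0.642). The antisense gene *Gm13629* overlaps *Scn9a* exons and had 53 to 321 counts per library. The library kit named in the labels is one that marks strand, but whether the counting used strand is not given in the sources used here, so *Scn9a* values are uncertain by reads of this pair.

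Of the beta subunits, *Scn3b* showed the widest range of the 8 genes between regions. Its forebrain libraries lay at 69.9 to 140 CPM (median 94.6), midbrain libraries at 104 to 131 (median 117) and hindbrain libraries at 16.3 to 39.1 (median 24.96). Every hindbrain library was below every other. The fold was 3.65 for forebrain over hindbrain, 1.87 ± 0.20 on the log2 scale (adjusted p = 1.31e-06, edgeR), and 4.37 for midbrain over hindbrain, 2.13 ± 0.21 (adjusted p = 6.01e-07), with -0.26 ± 0.20 between forebrain and midbrain (adjusted p = 0.391).

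*Scn2b*, which is joined to alpha subunits by a disulfide bond, changed least among the genes with a called difference to hindbrain. Forebrain libraries lay at 185 to 286 CPM (median 255.8), midbrain libraries at 245 to 286 (median 268) and hindbrain libraries at 160 to 187 (median 172). Midbrain and hindbrain did not overlap, and in forebrain Fmr1CRE replicate 1, at 185 CPM, was the 1 library within the hindbrain range. *Scn2b* was 1.44 times as high in forebrain as in hindbrain, 0.53 ± 0.085 on the log2 scale (adjusted p = 7.59e-05, edgeR), and 1.55 times as high in midbrain, 0.63 ± 0.085 (adjusted p = 1.89e-05).

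*Scn4b*, whose product is known for a role in fast resurgent sodium currents, was the 1 beta subunit lowest in midbrain. Its forebrain libraries lay at 118 to 333 CPM (median 235), midbrain libraries at 68.1 to 116 (median 91.8) and hindbrain libraries at 118 to 185 (median 144). Midbrain lay below both other regions without overlap, by a narrow margin, while forebrain ran from the bottom of the hindbrain range to far above it. *Scn4b* was 2.501 times as high in forebrain as in midbrain, 1.32 ± 0.21 on the log2 scale (adjusted p = 0.000485, edgeR), and 0.615 times as high in midbrain as in hindbrain, -0.70 ± 0.21 (adjusted p = 0.0121). The forebrain level was 1.54 times that of hindbrain, 0.62 ± 0.21 (adjusted p = 0.0218), and this call was lost without wild-type replicate 1 (0.51, adjusted p = 0.114), without Fmr1CRE replicate 3 (0.56, adjusted p = 0.0938) and without both mice numbered 3 (0.63, adjusted p = 0.114). The difference between midbrain and hindbrain was lost without wild-type replicate 3 (-0.54, adjusted p = 0.0817) and without both mice numbered 3 (-0.54, adjusted p = 0.165).

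**Figure D2:**
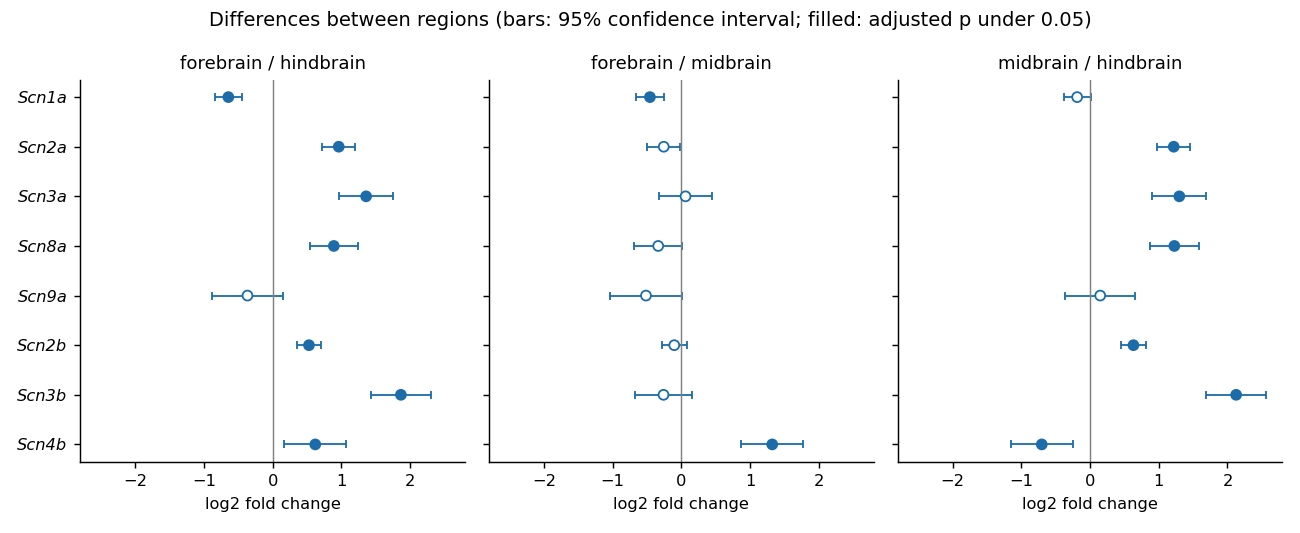
Log2 fold change (horizontal axis) of each subunit between forebrain and hindbrain, forebrain and midbrain, and midbrain and hindbrain, with 95% confidence intervals and filled points for an adjusted p under 0.05 in edgeR. The points of *Scn3b* reach 1.87 and 2.13 against hindbrain, *Scn1a* lies at -0.64, and *Scn4b* changes side between the comparisons.

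Separation of single libraries followed the tests in part. No overlap between the 6 libraries of each region was found for 4 of 8 genes between forebrain and hindbrain (*Scn1a*, *Scn2a*, *Scn3a* and *Scn3b*), where 27.7% of all genes tested had none. Between midbrain and hindbrain it was 6 of 8, against 26.9%, and between forebrain and midbrain 2 of 8, against 10.5%. With the mouse as a block the 8 genes kept their calls in the 3 comparisons, and the difference of *Scn4b* between forebrain and hindbrain was then 0.57 (adjusted p = 0.00944, edgeR).

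Regions differ in their cells, and in bulk tissue fewer cells of a type cannot be told apart from less RNA per cell. The 7 oligodendrocyte markers summed to 13201 to 16941 CPM in forebrain, 17518 to 20775 in midbrain and 30204 to 42360 in hindbrain. The 3 genes listed as markers of fast-spiking interneurons, *Pvalb*, *Kcnc1* and *Syt2*, had a mean log2 CPM of 5.69 to 6.02, 7.05 to 7.77 and 8.01 to 8.32 in the same order. The 5 Purkinje cell markers had 3.26 to 4.21, 6.20 to 7.45 and 7.35 to 8.40, and *Scn1a* is known from both cell types. Whether the listed genes mark the same cells in every region was not tested, so list values are not numbers of cells. All of these markers passed the filter in the 18 libraries, which keeps a gene that is high in 1 group alone. In forebrain *Pcp2* and *Ppp1r17* of the Purkinje list reached at most 1.36 and 1.33 CPM. None of these list values overlapped between forebrain and hindbrain, but single genes could differ. *Itpr1* of the Purkinje list overlapped, at 283 to 547 against 405 to 839 CPM. *Kcnc1* of the fast-spiking list had a mean of 258 CPM in midbrain and 207 in hindbrain. The 6 astrocyte markers had a mean log2 CPM of 7.74 to 8.32, 8.16 to 8.35 and 8.35 to 8.80, and the 6 midbrain markers -1.65 to 0.60, 2.15 to 2.93 and -0.14 to 0.92. Of the midbrain list, *Otx2* was highest in hindbrain, with means of 4.06, 6.19 and 9.28 CPM. *Tal2* was low in all regions, at 0.241, 0.273 and 0.301 CPM. The 10 pan-neuronal markers went both ways. Their log2 fold changes ran from -2.74 to 2.28 between forebrain and hindbrain, with 2 called higher and 6 lower, and from -1.20 to 2.26 between midbrain and hindbrain, with 3 called higher and 5 lower. Between forebrain and midbrain they ran from -1.54 to 0.30, with 0 called higher and 5 lower. Their medians were -0.34, -0.11 and -0.26 in the same order. Relative to that median *Scn1a* was at -0.31 between forebrain and hindbrain and at -0.19 between forebrain and midbrain, as a description, since the median stands for genes that moved in both directions. The part of cell makeup in these differences was not tested.

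The mix of alpha subunits was computed from levels per kilobase, as each gene's share of the 5 alpha subunits together. *Scn2a* held the largest share in forebrain, 41.3% ± 2.62 (SD, n = 6), and in midbrain, 40.2% ± 2.97, and *Scn1a* held the largest in hindbrain, 50.4% ± 1.76. The *Scn1a* share was 25.5% ± 4.30 in forebrain and 27.96% ± 3.01 in midbrain, and the *Scn2a* share 27.7% ± 3.85 in hindbrain. In hindbrain the lowest *Scn1a* share was 48.5%, above the highest of forebrain, 34.0%, and of midbrain, 33.2%. *Scn8a* made up 24.2% ± 2.52 in forebrain, 24.6% ± 3.06 in midbrain and 16.7% ± 1.65 in hindbrain. *Scn3a* fell in the same order, from 8.33% ± 0.577 to 6.49% ± 0.958 and 4.16% ± 1.02. *Scn9a* stayed near 1%, with 0.638%, 0.747% and 1.05%.

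Of the 5 shares, 4 did not overlap between forebrain and hindbrain, the exception being *Scn9a*, and 4 did not overlap between midbrain and hindbrain. Between forebrain and midbrain 0 of 5 were without overlap. Shares sum to 100% and so are not independent of each other. Without a correction for length, *Scn8a*, whose effective length of 11136 bases was the longest, rose to 34.4%, 34.9% and 25.3% in forebrain, midbrain and hindbrain, and *Scn1a* in hindbrain was at 43.4%, still the largest there. With the length weighted by TPM, *Scn1a* in hindbrain was at 44.5%, again the largest there. The 5 alpha subunits together amounted to 87.6 ± 13.9 CPM per kilobase in forebrain, 108 ± 8.0005 in midbrain and 68.0 ± 8.57 in hindbrain.

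Among the 3 listed beta subunits, *Scn2b* was the largest in each region, with 44.0% ± 4.13 in forebrain, 53.3% ± 2.72 in midbrain and 52.2% ± 4.33 in hindbrain. Division of the rest differed by region. *Scn4b* had 32.7% ± 6.18 in forebrain, 15.0% ± 2.61 in midbrain and 37.1% ± 2.40 in hindbrain, while *Scn3b* had 23.3% ± 3.09, 31.7% ± 2.25 and 10.8% ± 2.62. The *Scn3b* share did not overlap between any of the 3 regions, while the *Scn4b* shares of forebrain and hindbrain overlapped. With the length weighted by TPM, *Scn3b* and *Scn4b* were about level in forebrain, at 30.1% ± 3.63 and 29.8% ± 5.95. These are shares of the 3 listed genes alone, and the order of forebrain and hindbrain for *Scn2b* and *Scn4b* depended on that denominator. With all annotated beta subunits in it, *Scn2b* was at 18.0% in forebrain and 15.5% in hindbrain, and *Scn4b* at 13.7% and 11.2%.

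**Figure D3:**
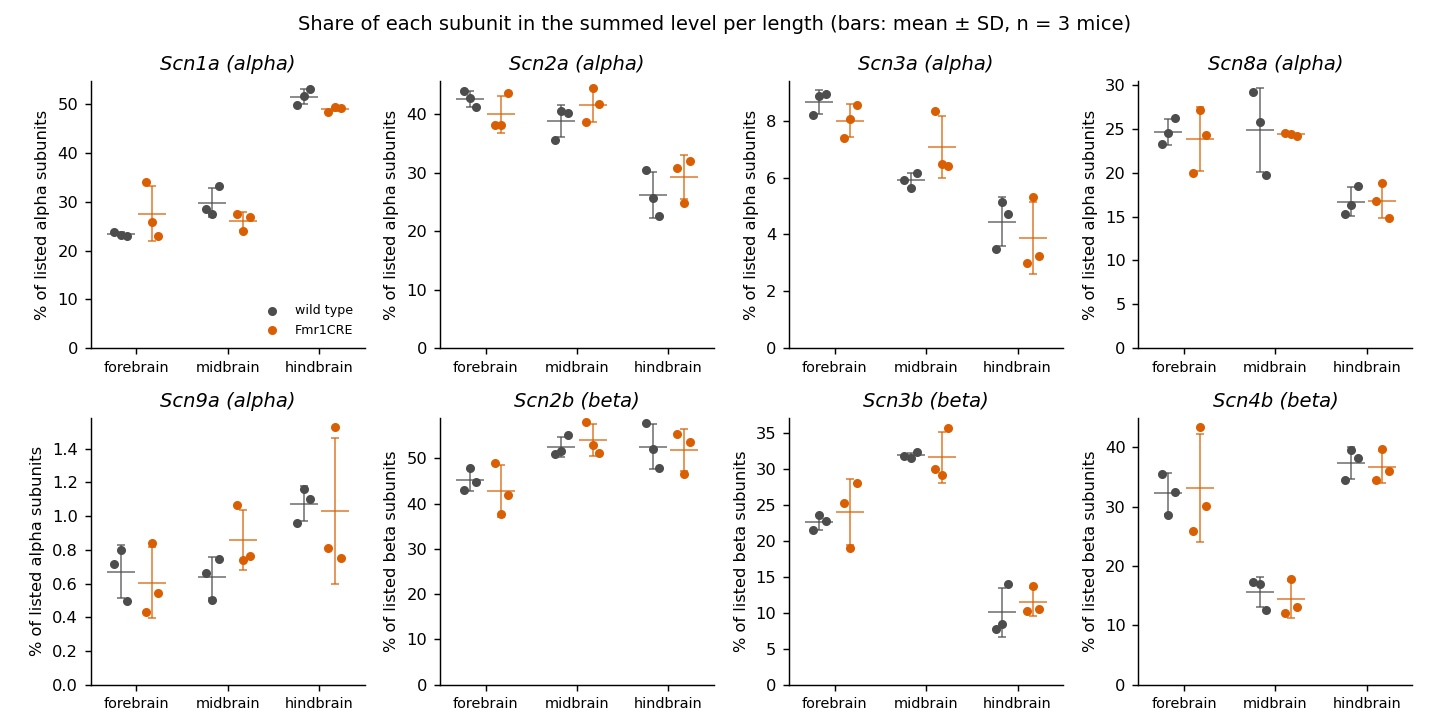
Share (%, vertical axis, from 0) of each alpha subunit in the 5 alpha subunits, and of each beta subunit in the 3 beta subunits, from levels per kilobase, for every library by region, grey for wild type and orange for Fmr1CRE with the mean ± SD of 3 mice. *Scn1a* rises to 48.5% to 53.1% in hindbrain, and the forebrain library at 34.0% is Fmr1CRE replicate 1.

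Fmr1CRE mice were compared with wild type in each region to ask whether the regulatory variant altered the subunits at P25. None of the 8 genes passed an adjusted p of 0.05 in any region, 0 of 8 in edgeR in forebrain, midbrain and hindbrain, and the shares of all genes tested that passed were 0.00%, 0.00543% and 0.00%. At an unadjusted p under 0.05 the count was also 0 of 8 in each region, against 5.43%, 6.17% and 5.13% of all genes, and DESeq2 called 0 of 8 in each. With each region normalised alone, the genotypes overlapped in level for each of the 8 genes, where 10.2%, 11.3% and 10.9% of all genes did not overlap. The *Scn1a* share of the alpha subunits in midbrain was 27.6% to 33.2% in wild type and 24.0% to 27.5% in Fmr1CRE mice, without overlap. In hindbrain it was 49.9% to 53.1% and 48.5% to 49.4%. The *Scn3a* share in midbrain was 5.63% to 6.15% and 6.42% to 8.33%. All other shares overlapped between genotypes. Shares were not tested and have no counterpart over all genes. The smallest two-sided exact permutation p among the 24 comparisons was 0.2, where 3 against 3 mice cannot go below 0.1.

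The forebrain values of *Scn2a* were 300, 295 and 249 CPM in wild-type replicates 1 to 3 and 178, 199 and 301 in Fmr1CRE replicates 1 to 3. Fmr1CRE replicates 1 and 2 lay below all 3 wild-type libraries and replicate 3, which went against its label, was level with the highest of them. The difference was -0.29 ± 0.19 on the log2 scale (95% confidence interval -0.72 to 0.14, adjusted p = 0.811, edgeR; exact permutation p = 0.3). *Scn8a* had 255, 271 and 253 CPM in wild-type forebrain and 149, 228 and 268 in Fmr1CRE forebrain. Again Fmr1CRE replicates 1 and 2 were below the wild-type libraries and replicate 3 was among them, with a difference of -0.25 ± 0.18 (adjusted p = 0.817, edgeR). *Scn3a* had 58.5, 64.1 and 56.3 CPM in wild type and 36.0, 44.1 and 61.7 in Fmr1CRE mice, in the same arrangement, with -0.31 ± 0.18 (adjusted p = 0.806, edgeR).

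Without both forebrain libraries numbered 3, *Scn2a* and *Scn3a* were the 2 of 8 genes with an unadjusted p under 0.05, where 13.6% of all genes tested had one. The log2 fold change of *Scn2a* in Fmr1CRE forebrain was then -0.61 (unadjusted p = 0.00281, adjusted p = 0.182, edgeR) and that of *Scn3a* -0.56 (unadjusted p = 0.0100, adjusted p = 0.271). Without Fmr1CRE replicate 3 alone they were at -0.53 (unadjusted p = 0.00418, adjusted p = 0.153) and -0.53 (unadjusted p = 0.00512, adjusted p = 0.162), where 16.9% of all genes had an unadjusted p under 0.05. No gene of the 8 passed the adjusted threshold in either case.

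Fmr1CRE forebrain replicate 1 was low in most of these genes. It had the lowest level of the 6 forebrain libraries for 7 of the 8 subunits, *Scn1a* being the exception, and for 13 of 19 partner genes described further on. Most of these subunits moved together over the libraries, so they are not separate observations. The share of all genes lowest in this library was not counted, and whether the low values are particular to these genes was not tested. Its *Scn2b* level was 185 CPM, where the other forebrain libraries had 239 to 286, and its *Scn3b* level 69.9 CPM, where the others had 88.8 to 140. Its *Scn1a* share of the alpha subunits was 34.0%, where the others had 23.0% to 25.8%.

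*Scn4b* varied most between forebrain libraries, with 258, 196 and 221 CPM in wild type and 118, 333 and 249 in Fmr1CRE mice, so that the lowest and the highest of the 6 libraries were both Fmr1CRE. Its difference was 0.076 ± 0.32, with a 95% confidence interval of -0.67 to 0.82 (adjusted p = 0.967, edgeR).

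In midbrain the lowest unadjusted p was that of *Scn1a*. It had 216, 195 and 205 CPM in wild type and 199, 164 and 172 in Fmr1CRE mice, so that 1 Fmr1CRE library lay within the wild-type range and the others below it. The difference was -0.20 ± 0.10 (unadjusted p = 0.0829, adjusted p = 0.813, edgeR; exact permutation p = 0.2). *Scn2a* in midbrain was nearly level, with 294, 312 and 272 CPM against 305, 332 and 293 and a difference of 0.083 ± 0.088, for which the 95% confidence interval ran from -0.12 to 0.29. *Scn8a* spread from 214 to 386 CPM among the wild-type mice alone, and its difference was -0.067 ± 0.19.

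In hindbrain *Scn2a* had 127, 104 and 127 CPM in wild type and 137, 128 and 156 in Fmr1CRE mice. The Fmr1CRE values lay above the wild-type values, but Fmr1CRE replicate 2 and wild-type replicate 1 were so close that they changed places when the 6 hindbrain libraries were normalised alone. The difference was 0.22 ± 0.13 (adjusted p = 0.875, edgeR; exact permutation p = 0.2). *Scn3b* had 16.3, 19.0 and 37.3 CPM in wild type and 25.4, 39.1 and 24.5 in Fmr1CRE mice, and its 95% confidence interval, from -0.45 to 1.03 around 0.29, was among the widest. *Scn1a* differed by -0.024 ± 0.15 in hindbrain, with 191, 193 and 273 CPM in wild type and 197, 232 and 221 in Fmr1CRE mice. Leaving out libraries again moved single genes. Without both libraries numbered 3, *Scn3b* (0.85, unadjusted p = 0.0121, adjusted p = 0.316, edgeR) and *Scn8a* (0.37, unadjusted p = 0.0464, adjusted p = 0.397) were the 2 of 8 with an unadjusted p under 0.05 in hindbrain, where 12.3% of all genes had one, and in midbrain 0 of 8 had one, where 11.8% of all genes did. Without wild-type replicate 3 alone, *Scn3b* was at 0.74 in hindbrain (unadjusted p = 0.0162) and *Scn8a* at -0.27 in midbrain (unadjusted p = 0.0446), and without Fmr1CRE replicate 1 *Scn1a* was at -0.29 in midbrain (unadjusted p = 0.0215). Across the 3 regions the intervals of *Scn2b* were the narrowest but for that of *Scn1a* in forebrain, and ran from -0.45 to 0.22, from -0.15 to 0.24 and from -0.11 to 0.32.

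**Figure D4:**
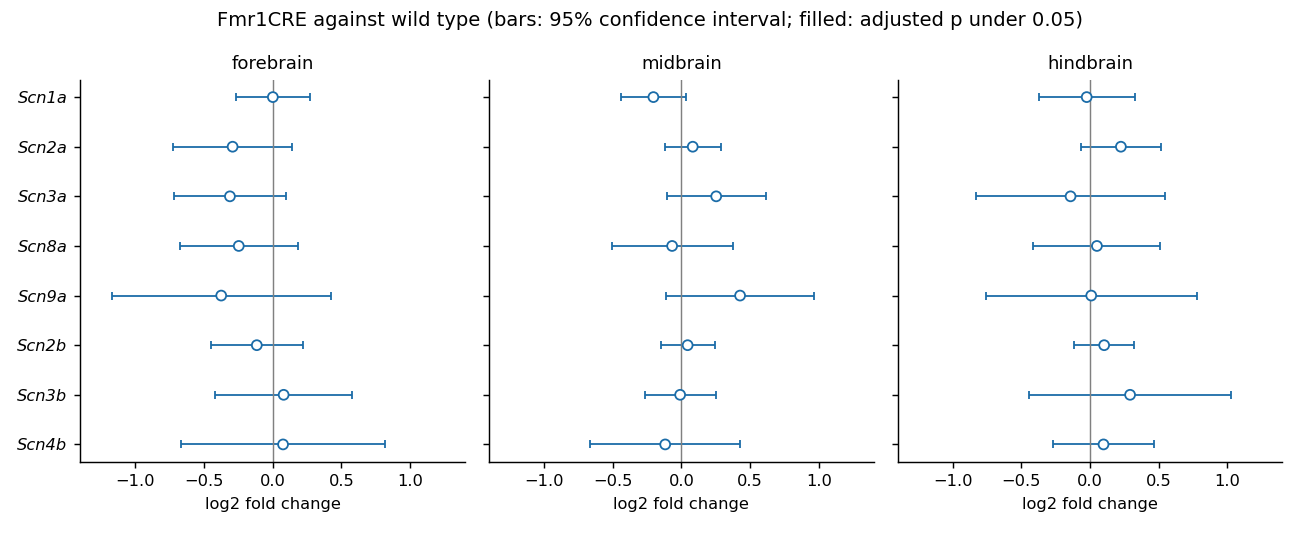
Log2 fold change (horizontal axis) of each subunit in Fmr1CRE against wild-type mice in forebrain, midbrain and hindbrain, 3 mice of each genotype, with 95% confidence intervals and filled points for an adjusted p under 0.05 in edgeR. No point is filled and each interval includes 0.

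The genotype effect was also compared between regions. With all 18 libraries, 0 of 8 genes passed an adjusted p of 0.05 in the interaction test in edgeR, against 0.00% of all genes tested, and 0 of 8 an unadjusted p under 0.05, against 7.54%. The lowest unadjusted p was that of *Scn2a*, 0.0685, with differences of -0.29, 0.083 and 0.22 in forebrain, midbrain and hindbrain. DESeq2 called 0 of 8 and 52 genes in all, with an unadjusted p under 0.05 for 1 of 8, *Scn2a* (0.0452). The test changed without the mice numbered 3. Without both of them 0 of 8 passed the adjusted threshold in edgeR, against 0.636% of all genes (131 genes), and 4 of 8 had an unadjusted p under 0.05, against 19.8%. These were *Scn2a* (unadjusted p = 0.000910, adjusted p = 0.0756, edgeR), *Scn3b* (0.00387, adjusted p = 0.106), *Scn8a* (0.0282, adjusted p = 0.202) and *Scn2b* (0.0369, adjusted p = 0.225). The differences of *Scn2a* were then -0.61 in forebrain, 0.084 in midbrain and 0.17 in hindbrain, in fits of each region. Without Fmr1CRE replicate 3 alone 0 of 8 passed the adjusted threshold, against 0.0192% of all genes, and 2 of 8 had an unadjusted p under 0.05, *Scn2a* (0.00139) and *Scn2b* (0.0272), against 13.8%. When a mouse's 3 libraries were added up, 0 of 8 passed an adjusted p of 0.05 in edgeR, against 0.00451% of all genes, and 0 of 8 an unadjusted p under 0.05, against 3.70%. Without both mice numbered 3 these counts were again 0 of 8 and 0 of 8, against 0.00% and 5.85% of all genes. The summed differences lay between -0.081 for *Scn8a* and 0.087 for *Scn3b*.

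Over the 18 libraries the genes fell into a set that moved together and 3 genes that did not. *Scn2a*, *Scn3a*, *Scn8a*, *Scn2b* and *Scn3b* correlated with each other at Pearson r of 0.86 to 0.96 on log2 CPM, as a description over libraries that share mice and regions. *Scn1a* correlated with these 5 at -0.49 to -0.30, *Scn4b* at -0.16 to 0.060 and *Scn9a* at 0.10 to 0.29. Among 11189 genes with a mean log2 CPM of at least 3, the genes most like *Scn1a* over the 18 libraries were *Nxpe3*, *Nap1l2* and *Asah2* (r of 0.95 each). Those most like *Scn2a* were *Cadm1* (0.98), *Xkr4* and *Pcdha12* (0.97 each), those most like *Scn8a* were *Astn1*, *Cdh13* and *Atp2a2* (0.98 each), and those most like *Scn3a* were *Pnma2* (0.98), *Creg2* (0.97) and *Csrnp3* (0.96). *Scn3b* was most like *Shisa9* (0.99), *Sstr1* and *Slitrk3* (0.98 each), and *Scn2b* most like *Dyrk1a* (0.98), *Ap2b1* and *B4galt6* (0.97 each). *Scn4b* and *Scn9a* had no partner above 0.90, with *Tshz1* and *Penk* (0.88 each) and *mt-Nd5* (0.82) nearest to *Scn4b*, and *Zim1* and *Chic1* (0.85 each) and *Srpr* (0.84) nearest to *Scn9a*. Each r is over the same 18 libraries of 3 regions.

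The proteins that hold and regulate sodium channels at the axon initial segment were followed in a list of 21 partner genes, of which 19 were tested over the 18 libraries. Between forebrain and hindbrain 11 of them were higher in forebrain and 2 lower at an adjusted p under 0.05 in edgeR, where 26.4% of all genes tested were called higher and 25.3% lower. Between midbrain and hindbrain 11 were higher in midbrain and 1 lower, against 25.1% and 24.0%. Between forebrain and midbrain 2 were higher and 2 lower, against 9.38% and 9.96%. By at least 1 on the log2 scale, 5 were higher and 1 lower in forebrain than in hindbrain, 5 were higher in midbrain than in hindbrain and 0 differed that much between forebrain and midbrain, where 18.8%, 14.8% and 4.11% of all genes tested did so in either direction. Among those that did were the potassium channel gene *Kcnq3* (2.11 ± 0.15 between forebrain and hindbrain), the FGF homologous factor *Fgf13* (1.77 ± 0.12), which binds the tail of alpha subunits, and the ubiquitin ligase *Nedd4l* (1.61 ± 0.17), all higher in forebrain, and *Scn11a* (-1.48 ± 0.39), lower in forebrain. *Kcnq3* was also higher in midbrain than in hindbrain by 1.77, *Fgf13* by 1.58 and *Nedd4l* by 1.47. *Scn11a* was low, with a mean of 0.249 CPM in forebrain and 0.673 CPM in hindbrain. In the comparisons of genotypes 0 of the 18 or 19 partner genes tested passed an adjusted p of 0.05 in edgeR.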

How the data were processed

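Poly(A) RNA of forebrain, midbrain and hindbrain of 3 Fmr1CRE and 3 wild-type mice was sequenced as single-end 50-base reads in 2 pools of 9 libraries. Which library was in which pool is not given in the sources used here, so pool and group could not be examined. The labels name Salmon 0.14.0, DESeq2 1.30.1 and the build mm10, and the study's methods the bcbio_nextgen pipeline. The annotation release is not given in the sources used here.

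The gene counts were deposited by the authors as whole numbers without normalization. They were checked against the transcript estimates and behaved as length-scaled estimates. Transcript TPM multiplied by the mean effective length of the gene, scaled to library size, came within 0.166% of 1 library of the gene counts in each case, with the next library at least 9.24% away, over 53421 genes without the 8 members, where plain sums of reads were 3.85% to 6.48% away. Counts of a gene with changing transcripts are therefore not plain read counts. The expected counts and TPM values per transcript were deposited by the authors for 18 sets, and each set was placed in a region by this match, which gave the library of the set's name in 18 of 18 cases and that of the attached record in 2. The deposited log2 variance-stabilized values were not used, since the copy used here ended before any of the 8 genes. Measured columns left unused numbered 0. Symbols, positions and sequences came from GENCODE release M21 for GRCm38, where 53363 of 53468 gene identifiers had a symbol.

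Libraries were grouped by region and genotype. Tests used edgeR 4.0.16 in R 4.3.3 (TMM, filterByExpr, quasi-likelihood, two-sided, Benjamini-Hochberg at 0.05 over all genes tested), within a region for genotypes and over 18 libraries, with 1 mean per region and genotype, for regions and the interaction. A two-sided exact permutation test of log2 CPM (prior count of 2) stood beside the genotype test. The 18-library fits treat libraries from 1 mouse as unrelated, and a block for the mouse was an alternative, as the labels give regions of a mouse the same identifier. Mice are separate animals, so the spread is between littermates. Depth was 22455512 to 28061185 counts per library, and precision was set by the spread between mice. Shares of subunits are descriptions without a test, from CPM per kilobase of Salmon's effective length weighted by reads. Confidence intervals are at 95%.

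All 8 subunits are named whatever their values, with the 3 most correlated genes of each and the partner genes that passed an adjusted p of 0.05 with a log2 fold change of at least 1. Some partner genes and exon sequences are not reported here. The 8 members, the list of 21 partner genes and the lists of cell type and region markers were chosen with earlier results of these data known. As alternatives, DESeq2 1.42.0 was run, and edgeR with the size factors of DESeq2, total counts alone, no filter, at least 10 counts in every library, 1 fit of 18 libraries, the replicate block, each genotype alone, each replicate left out and both mice numbered 3 left out. For shares they were other lengths and denominators. The length weighted by TPM was chosen after seeing the data. The code was tested on simulated data.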

Additional observations from a re-analysis of the deposited data

How the results depend on the processing

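The counts of subunits past the threshold stayed within 1.5 times the reported count under the alternatives run, except between forebrain and midbrain, where the 2 called became 0 with Fmr1CRE mice only and 4 without both mice numbered 3. Leaving out each replicate in turn gave 6 to 7 calls between forebrain and hindbrain, 2 to 3 between forebrain and midbrain, 5 to 6 between midbrain and hindbrain, and 0 in each comparison of genotypes. With Fmr1CRE mice only, *Scn2b* (0.37) and *Scn4b* (0.56) were no longer called between forebrain and hindbrain, *Scn4b* (-0.85) between midbrain and hindbrain, and *Scn1a* (-0.37) and *Scn4b* (1.41) between forebrain and midbrain. This leaves 3 libraries per region, and the cause was not tested further. *Scn1a* between midbrain and hindbrain was called with total counts alone (-0.26) and with at least 10 counts in every library (-0.23).

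Under a replicate block, pairing libraries by number within a region, 0 of 8 subunits were called for the genotype in each region, and *Scn4b* in forebrain (-0.026) and *Scn9a* in hindbrain (-0.063) changed sign. The deviations of same-numbered libraries of the 2 genotypes correlated between -0.12 and 0.069, and 0 of 9 pairs exceeded 0.1. Libraries of the same mouse in different regions correlated between -0.17 and 0.18, and 3 of 18 pairs exceeded 0.1. Since the correlation was also low for libraries known to share a mouse, it cannot decide whether the number marks a pairing. The block for the mouse changed no call of the 8 between regions.

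The other changes of sign were in differences that passed no threshold, and the cause was not tested. In forebrain, *Scn1a* between genotypes was -0.0084 with no filter, -0.032 in 1 fit of 18 libraries and -0.085 without both libraries numbered 3, and *Scn3b* then was -0.23. In midbrain, *Scn3b* was 0.022 with total counts alone, and in hindbrain *Scn9a* was -0.0037. Without both libraries numbered 3, hindbrain *Scn1a* was 0.14 and *Scn3a* 0.17, and in summed counts *Scn2b* was -0.0073 and *Scn3b* -0.033. Between forebrain and midbrain *Scn3a* was -0.0024 with total counts alone, -0.23 with Fmr1CRE mice only and -0.12 without both mice numbered 3, and between midbrain and hindbrain *Scn9a* was -0.067 with wild-type mice only.

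With each replicate left out in turn, forebrain differences between genotypes ran from -0.059 to 0.073 for *Scn1a*, -0.25 to 0.017 for *Scn2b*, -0.22 to 0.26 for *Scn3b* and -0.28 to 0.38 for *Scn4b*. Midbrain differences ran from -0.27 to 0.12 for *Scn8a*, -0.098 to 0.066 for *Scn3b* and -0.37 to 0.026 for *Scn4b*. Hindbrain differences ran from -0.11 to 0.16 for *Scn1a*, -0.50 to 0.070 for *Scn3a*, -0.084 to 0.30 for *Scn8a*, -0.45 to 0.20 for *Scn9a* and -0.042 to 0.21 for *Scn4b*. In summed counts they ran from -0.087 to 0.056 for *Scn2a*, -0.082 to 0.18 for *Scn9a*, -0.0054 to 0.059 for *Scn2b*, -0.071 to 0.22 for *Scn3b* and -0.20 to 0.25 for *Scn4b*. Between regions, *Scn3a* ran from -0.11 to 0.23 between forebrain and midbrain and *Scn9a* from -0.065 to 0.44 between midbrain and hindbrain.

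Over all genes tested the genotype calls depended on the tool, with 0, 1 and 0 genes in forebrain, midbrain and hindbrain in edgeR and 31, 62 and 59 in DESeq2, none of them a listed subunit. The interaction test called 0 genes in edgeR, 52 in DESeq2, 7 with no filter and 131 without both mice numbered 3, and the test on summed counts 1 in edgeR and 26 in DESeq2, again with 0 of 8 subunits. The smallest p that an exact test of 3 against 3 mice allows is 0.1. *Scn9a* had few reads, and the standard error of its genotype difference was the largest among the alpha subunits in each region.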
